A study of Homo sapiens with 12 samples.

Results

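The HOX cluster genes were taken as every row of the deposited PANC-1 and HPAF-II gene tables whose symbol, or either symbol of a joined row, was HOXA, HOXB, HOXC or HOXD followed by a number. The rule found 36 rows with 39 HOX symbols among the 48114 rows of each table. The joined rows were HOXA3/HOXA5 and HOXC4/HOXC5/HOXC6, which the annotation counts as a single gene each, so their members could not be told apart.

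PANC-1 and HPAF-II are established cell lines from human pancreatic ductal adenocarcinoma (PDAC), and polyA RNA was sequenced from 12 libraries of these 2 lines, 3 per group. PANC-1 cells, a line of the basal-like (quasi-mesenchymal) kind, received a control siRNA (siCtrl), an siRNA against QKI (siQKI) or an siRNA against RBFOX2 (siRBFOX2). QKI and RBFOX2 are RNA-binding proteins that regulate alternative splicing, and the knockdowns, at 40 nM, lasted 48 h. HPAF-II cells, a line of the classical (epithelial) kind, received siCtrl only, for 48 h, so each subtype was represented by 1 line and line and subtype cannot be told apart. The labels call the 3 libraries of a group biological replicates without saying what separated them, so p-values measure the spread between these libraries.

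HOX genes encode homeodomain transcription factors and lie in 4 clusters, HOXA on chromosome 7, HOXB on chromosome 17, HOXC on chromosome 12 and HOXD on chromosome 2. Low-numbered (anterior) genes are used at the head end of the embryo and high-numbered (posterior) genes toward the tail, and adult tissues keep a stable record of this position. Polycomb complexes hold silent HOX genes shut, trithorax (MLL) complexes keep active ones open, and HOX proteins bind DNA together with the TALE homeodomain cofactors PBX and MEIS.

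The knockdowns were seen in the targeted genes. QKI stood at a mean of 25533 normalized counts in siCtrl and 5034 in siQKI libraries (log2 fold change -2.34 ± 0.06 (SE), adjusted p = 9.2e-13), and RBFOX2 at 15429 in siCtrl and 2095 in siRBFOX2 libraries (-2.89 ± 0.09 (SE), adjusted p = 4.7e-11). RBFOX2 was also lower in siQKI libraries (-0.29 ± 0.09 (SE), adjusted p = 0.021), but this call was lost with upper-quartile scaling. All 7 duct epithelium markers on a fixed list were present in every group. Per 1000000 counts they summed to 2870 to 2935 in siCtrl, 2790 to 2966 in siQKI and 2385 to 2539 in siRBFOX2 libraries. In HPAF-II libraries the sum was 11275 to 12117. Of the 7, 1 rose and 2 fell in siQKI and 1 rose and 4 fell in siRBFOX2, beside 33.0% and 26.5% of all genes called. The marker that rose was CDH1 in both (1.39 ± 0.11 (SE), adjusted p = 1.5e-07 and 0.53 ± 0.11 (SE), adjusted p = 0.0018). In bulk libraries such as these, fewer cells of a type and less RNA per cell cannot be told apart. The endothelium and acinar lists summed to no more than 0.220 and 1.59 on the same scale in any library. The 4 fibroblast markers summed to 11.7 to 13.4 in siCtrl, 25.2 to 28.7 in siQKI, 15.0 to 22.6 in siRBFOX2 and 19.1 to 21.5 in HPAF-II libraries, with 2 of 4 (COL1A1 and PDGFRB) rising in both knockdowns and DCN listed at 0 in PANC-1. The 4 leukocyte markers summed to 144 to 167 in siCtrl, 116 to 118 in siQKI, 126 to 133 in siRBFOX2 and 1151 to 1240 in HPAF-II libraries, carried by CD68 and, in HPAF-II, by LYZ, with PTPRC listed at 0 in HPAF-II, siCtrl and siQKI libraries and CD3E in every PANC-1 library. The part of these markers in the HOX results was not tested.

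The control cells of the 2 lines differed in how their HOX level was divided among the clusters. The tables had been normalized separately, so the values of every library were divided by their sum and multiplied by 1000000 (rescaled counts) to set the lines side by side, and no test was made across them. The summed HOX level was 829 to 886 rescaled counts in PANC-1 siCtrl and 194 to 213 in HPAF-II libraries. In PANC-1 the HOXB cluster held 60.1% of this sum, HOXC 36.0%, HOXA 3.75% and HOXD 0.187%. HPAF-II had another order, with HOXA at 53.2%, HOXC at 27.5%, HOXB at 19.3% and HOXD at 0.00319%.

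**Figure D1:**
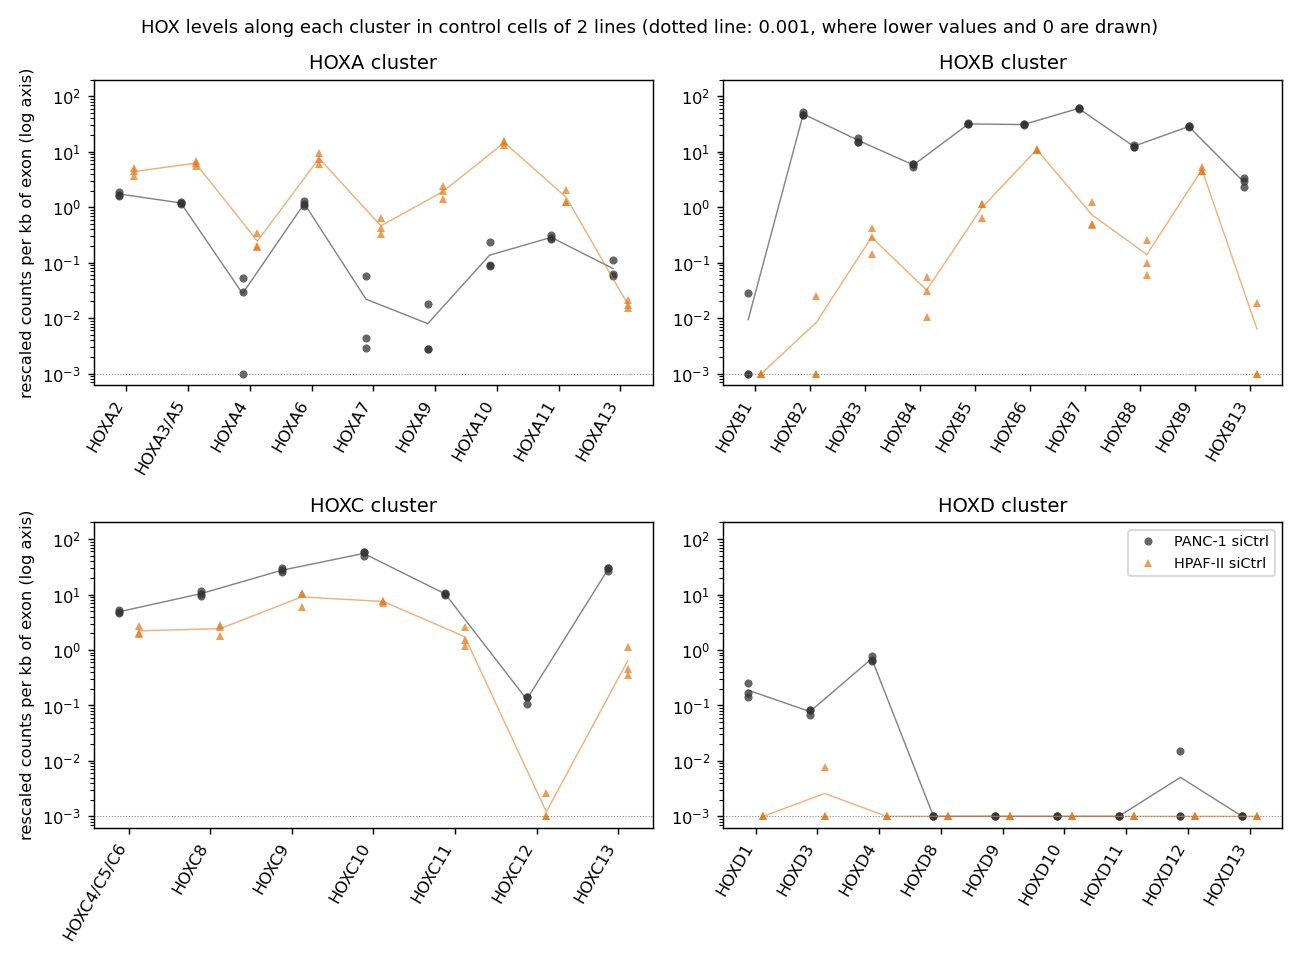
Rescaled counts per kilobase of exon (log axis) for HOX rows in paralog order, 1 panel per cluster, with 1 point per library of PANC-1 siCtrl (circles) and HPAF-II siCtrl (triangles) and a line through the group means. Values below 0.001 and zeros are drawn on the dotted line. HOXA10 is the highest HPAF-II row at 14.7 and HOXB7 the highest PANC-1 row at 60.8.

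Of the 29 HOX rows whose mean reached 10 normalized counts in PANC-1 siCtrl or HPAF-II cells, all 29 were at least 2-fold apart, 8 higher in HPAF-II and 21 lower. Over all genes meeting the same minimum, 52.4% were at least 2-fold apart, 27.2% higher and 25.2% lower. The libraries of the lines did not overlap for any of the 29 HOX rows, against 63.7% of all genes. The 8 rows that were higher in HPAF-II were all HOXA, and every HOXB, HOXC and HOXD row among the 29 was lower.

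The widest gaps in favour of HPAF-II were in posterior HOXA genes. HOXA10, a gene of uterine and blood development, stood at 0.737, 0.284 and 0.274 rescaled counts in the PANC-1 siCtrl libraries and at 41.5, 49.8 and 48.0 in the HPAF-II libraries, 108-fold higher. HOXA9, a regulator of blood stem cells that is often active in leukaemia, stood at 0.00565, 0.00574 and 0.0379 against 4.89, 4.02 and 2.86. The HOXA9 mean was 239-fold higher, although all 3 PANC-1 values were close to 0. Both rows are also among those whose coordinates overlap. The HOXA10 row covers chr7:27170592-27254256 (hg38, minus strand) and spans HOXA11, HOXA13, HOTTIP and EVX1, sharing 4589 bp with HOXA9. The antisense HOXA10-AS, which lies across both, had means of 5.01 normalized counts in PANC-1 siCtrl and 646 in HPAF-II libraries. The counting strand is not stated in the sources used here, so counts of overlapping genes are uncertain.

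The promoter windows of these genes are shown because their RNA separates the lines most within HOXA. They are RefSeq windows (GRCh38.p14) of 300 bases, from 250 before the start to 50 after it, printed along the minus strand with every CG pair in capitals.
HOXA9, chr7:27165488-27165787: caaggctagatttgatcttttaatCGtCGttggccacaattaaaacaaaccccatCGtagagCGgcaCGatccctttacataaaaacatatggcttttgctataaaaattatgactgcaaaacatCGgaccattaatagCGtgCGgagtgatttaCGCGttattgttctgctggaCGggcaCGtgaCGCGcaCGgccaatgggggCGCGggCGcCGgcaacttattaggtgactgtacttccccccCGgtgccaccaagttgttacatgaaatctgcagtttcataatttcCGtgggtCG
HOXA10, inner start, chr7:27174271-27174570: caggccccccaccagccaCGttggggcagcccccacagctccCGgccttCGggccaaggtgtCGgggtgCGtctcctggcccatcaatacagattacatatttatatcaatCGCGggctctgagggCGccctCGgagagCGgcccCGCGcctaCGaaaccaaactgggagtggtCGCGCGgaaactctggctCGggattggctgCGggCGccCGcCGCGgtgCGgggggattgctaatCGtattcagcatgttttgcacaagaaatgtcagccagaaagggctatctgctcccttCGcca
HOXA10, outer start, chr7:27179812-27180111: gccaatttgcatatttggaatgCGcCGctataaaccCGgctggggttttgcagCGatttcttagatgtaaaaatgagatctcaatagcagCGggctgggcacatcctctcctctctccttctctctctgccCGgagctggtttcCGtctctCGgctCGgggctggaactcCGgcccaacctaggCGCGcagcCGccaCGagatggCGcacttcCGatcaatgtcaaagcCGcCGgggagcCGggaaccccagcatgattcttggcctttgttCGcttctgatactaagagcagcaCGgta
These windows held 22, 25 and 21 CG pairs, and the median over 26 HOX windows, which cover 20 of the 39 symbols, was 22.5 against 14 over all 34943 windows. DNA methylation and chromatin were not measured, so the windows are shown as sequence only.

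Other HOXA rows were higher in HPAF-II by smaller factors. HOXA3/HOXA5, genes of pharyngeal arch and lung patterning, stood at 6.63, 6.30 and 6.21 in PANC-1 and at 36.9, 29.2 and 33.9 in HPAF-II (5.22-fold), and HOXA6, which lies inside that row, at 1.06, 1.13 and 1.27 against 9.57, 5.87 and 7.22 (6.54-fold). HOXA11, a gene of the forearm and uterus, stood at 0.624, 0.712 and 0.638 against 2.92, 4.65 and 2.90 (5.30-fold). The rows with the lowest PANC-1 values were HOXA7, at 0.119, 0.00574 and 0.00874 against 0.865, 1.27 and 0.672, and HOXA4, at 0.0932, 0 and 0.0525 against 0.596, 0.347 and 0.339. HOXA13, the most posterior gene, which patterns digits and the genital tract, went the other way and stood at 0.319, 0.296 and 0.568 in PANC-1 against 0.106, 0.0758 and 0.0872 in HPAF-II, 4.40-fold lower in HPAF-II. HOXA2 was 2.53-fold higher in HPAF-II, the smallest of the 10 HOXA gaps.

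In HOXB, PANC-1 cells had nearly the whole cluster on, while HPAF-II cells had mainly HOXB6 and HOXB9. HOXB2, a hindbrain gene at the front of the cluster, stood at 80.2, 72.8 and 72.7 rescaled counts in PANC-1 and at 0.0397, 0 and 0 in HPAF-II. It was listed at 0 in 2 of the 3 HPAF-II libraries, as was HOXB13, the gene of prostate and tail at the other end (8.14, 11.6 and 10.1 against 0.0662, 0 and 0). HOXB3 stood at 112, 95.0 and 95.5 against 1.85, 0.913 and 2.67 (55.7-fold lower in HPAF-II), and HOXB4, a gene that expands blood stem cells and lies inside the HOXB3 row, at 22.6, 22.3 and 20.3 against 0.115, 0.0399 and 0.207. HOXB5 stood at 66.4, 64.9 and 63.8 against 2.33, 2.33 and 1.32 (32.6-fold lower), and HOXB7 at 81.3, 83.8 and 85.0 against 1.71, 0.646 and 0.678 (82.5-fold lower). HOXB8, known for its part in blood and microglial cells, stood at 22.4, 24.1 and 22.4 against 0.476, 0.112 and 0.178. Against these, HOXB9 was 5.98-fold lower (75.7, 72.0 and 74.2 against 13.9, 11.6 and 11.6) and HOXB6 only 2.83-fold lower. Per kilobase of exon, HOXB6 stood at 11.0 ± 0.253 rescaled counts (SD, n = 3) in HPAF-II cells, above its neighbours HOXB5 at 0.977 ± 0.287 and HOXB7 at 0.737 ± 0.440. In PANC-1 siCtrl cells the same 3 genes stood at 31.1 ± 0.849, 31.9 ± 0.635 and 60.8 ± 1.35 per kilobase, so HOXB5 and HOXB6 did not differ beyond their spread there.

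The HOXC cluster was expressed in both lines. HOXC10, a gene of lumbar motor neurons and the hindlimb, stood at 112, 111 and 97.7 rescaled counts in PANC-1 and 13.9, 15.0 and 14.6 in HPAF-II (7.36-fold lower), HOXC11 at 35.1, 33.9 and 31.8 against 4.96, 3.80 and 8.33 (5.90-fold lower), and HOXC8 at 17.8, 19.4 and 21.5 against 5.00, 5.35 and 3.43 (4.26-fold lower). HOXC9 and HOXC4/HOXC5/HOXC6 were 3.04-fold and 2.21-fold lower. The gap was wider at the posterior end, where HOXC13, the gene of hair and nail, stood at 72.2, 73.4 and 65.8 against 2.76, 0.846 and 1.09 (45.0-fold lower) and HOXC12 at 0.469, 0.347 and 0.472 against 0.00882, 0 and 0.00323. Per kilobase, the highest HPAF-II row of the cluster was HOXC9 at 9.08 ± 2.62, followed by HOXC10 at 7.50 ± 0.273, and the spread of the HOXC9 libraries covered this difference. In PANC-1 siCtrl cells HOXC10 stood at 55.2 ± 4.11 and HOXC9 at 27.6 ± 2.14 per kilobase.

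The HOXD cluster had the lowest summed level of the clusters in both lines. HOXD4, a gene of the hindbrain and neck vertebrae, stood at 0.935, 0.970 and 1.17 rescaled counts in PANC-1 siCtrl libraries, HOXD1 at 0.285, 0.494 and 0.338 and HOXD3 at 0.167, 0.204 and 0.210. HOXD1 and HOXD4 were listed at 0 in every HPAF-II library, and HOXD3 in 2 of 3, with 0.0194 in the other. HOXD8, HOXD9, HOXD10 and HOXD13 were listed at 0 in all 12 libraries. The depth in fragments is unknown, so a listed 0 does not show that a gene was silent.

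After knockdown of QKI a broad set of HOX genes rose in PANC-1 cells by small amounts. In the deposited normalized counts, 30 of the 36 HOX rows had a mean of at least 10 over the 9 PANC-1 libraries and were tested together with the other genes. In siQKI against siCtrl libraries 15 of the 30 changed, 13 rising and 2 falling, at an adjusted p under 0.05. Over all 22544 genes tested, 33.0% changed, 14.9% rising and 18.1% falling. For 16 of the 30 HOX rows the siQKI and siCtrl libraries did not overlap, against 44.7% of all genes. The median log2 fold change was 0.29 over the 30 rows and 0.03 over all genes. Over the 26 HOX rows with a mean of at least 50 it was 0.23. The changes were small, with 2 rising and 1 falling by at least 1.5-fold. The summed HOX level was 1044 to 1073 rescaled counts in siQKI libraries, above all siCtrl libraries. In siRBFOX2 libraries it was 920 to 982, also above all siCtrl libraries. Of the 15 siQKI calls, 11 held under all 17 alternative settings. Those of HOXA2, HOXB7 and HOXC8 were among the calls lost under at least 1.

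The gene that changed most against the general direction was HOXC11, a posterior gene that patterns the hindlimb. Its normalized counts were 11888, 11793 and 10974 in the siCtrl libraries, 5506, 4929.9 and 5332 in the siQKI libraries and 8451, 8416 and 7756 in the siRBFOX2 libraries. The 3 groups did not overlap, with siQKI lowest and siRBFOX2 between. HOXC11 fell in siQKI to 45.5% of the siCtrl mean (log2 fold change -1.14 ± 0.06 (SE), adjusted p = 2.4e-09) and in siRBFOX2 to 71.1% (-0.49 ± 0.06 (SE), adjusted p = 1.9e-05). The difference between the knockdowns passed its own test (-0.64 ± 0.06 (SE), adjusted p = 1.8e-06).

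Genes on both sides of HOXC11 rose. HOXC10 had 37808, 38813 and 33744 normalized counts in siCtrl, 55756, 55089 and 52831 in siQKI and 53971, 53119 and 48941 in siRBFOX2 libraries. Both knockdowns lay above siCtrl and overlapped each other, and the fold changes were 0.57 ± 0.05 (SE), adjusted p = 9.1e-07 in siQKI and 0.50 ± 0.05 (SE), adjusted p = 6.2e-06 in siRBFOX2. HOXC13 had 24455, 25559.8 and 22704 in siCtrl, 36203, 33258 and 33337 in siQKI and 38473, 34094 and 34062 in siRBFOX2 libraries. It rose in both (0.50 ± 0.06 (SE), adjusted p = 7.0e-06 and 0.55 ± 0.06 (SE), adjusted p = 4.8e-06), again with no difference between the knockdowns that passed (-0.05 ± 0.06 (SE), adjusted p = 0.6). HOXC12, a low row, had 159, 121 and 163 in siCtrl, 322, 342 and 313 in siQKI and 253, 247 and 274 in siRBFOX2 libraries and rose to 221% and 175% of siCtrl (1.15 ± 0.22 (SE), adjusted p = 8.5e-04 and 0.81 ± 0.22 (SE), adjusted p = 0.013).

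HOTAIR, a long noncoding RNA of the HOXC cluster known for its link to Polycomb, is transcribed from the other strand at the start of HOXC11 and shares 1831 bp with its row. It had 5638, 6079 and 4915 normalized counts in siCtrl, 10306, 9873 and 9731 in siQKI and 8708, 9882 and 8229 in siRBFOX2 libraries. HOTAIR thus rose in both knockdowns (0.85 ± 0.08 (SE), adjusted p = 7.9e-07 and 0.69 ± 0.08 (SE), adjusted p = 1.2e-05) where HOXC11 fell. Fragments from the shared 1831 bp cannot be assigned to either gene without strand, and their share of each count was not tested. HOXC10 shares 374 bp with HOXC-AS3 and HOXC13 shares 852 bp with HOXC13-AS, with the same uncertainty.

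**Figure D2:**
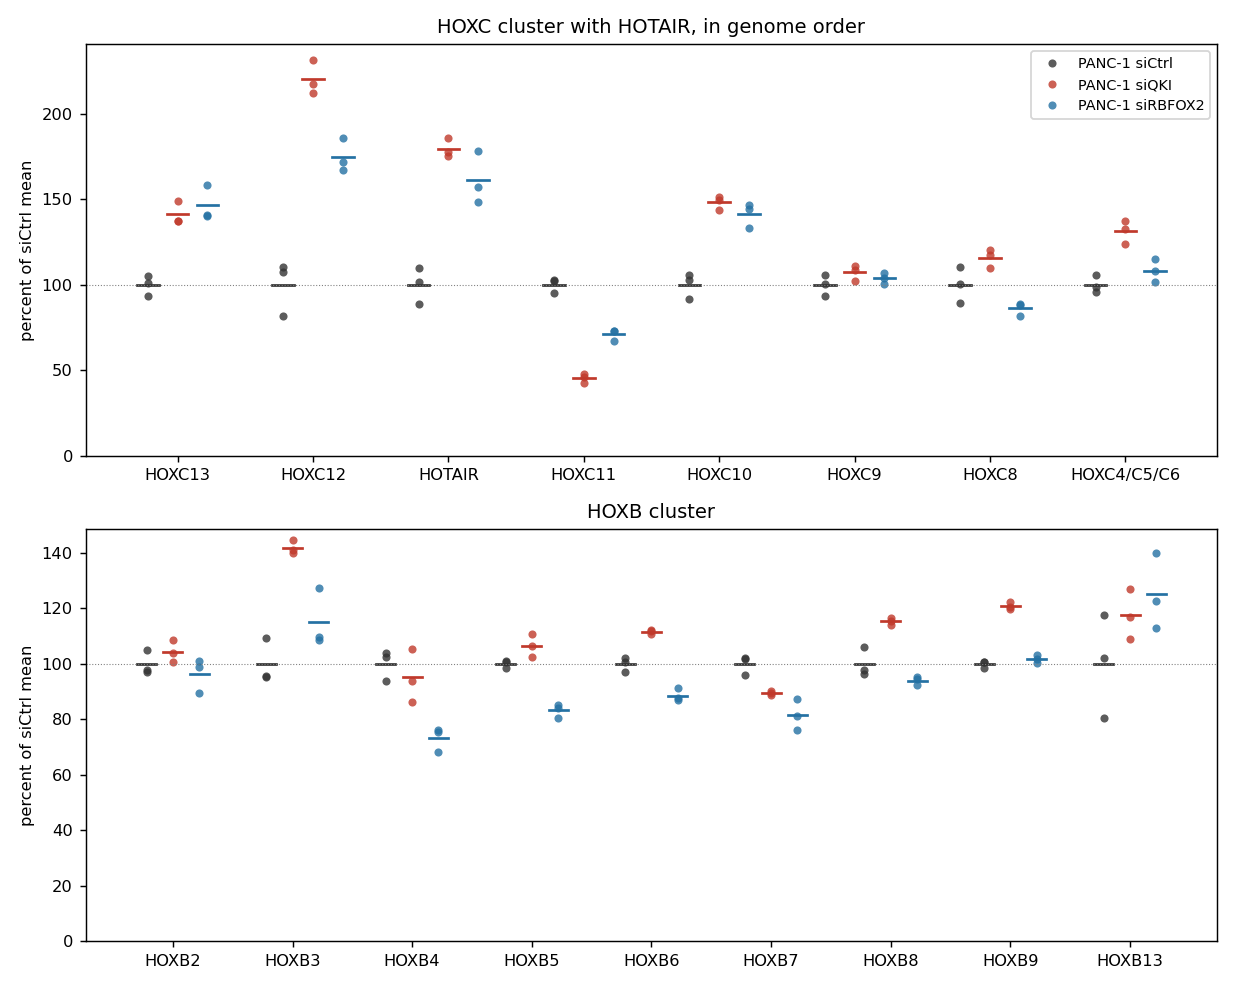
Normalized counts of each PANC-1 library as a percent of the siCtrl mean, for the HOXC cluster with HOTAIR in genome order (upper panel) and the HOXB cluster (lower panel). Points are libraries and bars group means (n = 3). HOXC11 falls to 45.5% in siQKI and 71.1% in siRBFOX2 while the HOXC12 mean reaches 221% and 175%.

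Of the HOXC rows from HOXC4 to HOXC9, HOXC4/HOXC5/HOXC6 and HOXC8 rose in siQKI. HOXC4/HOXC5/HOXC6 had 12182, 11379.7 and 11029 normalized counts in siCtrl, 15828, 14288 and 15327 in siQKI and 12458, 13244 and 11729.9 in siRBFOX2 libraries. The rise in siQKI (0.39 ± 0.06 (SE), adjusted p = 7.5e-05) was larger than in siRBFOX2 (difference 0.28 ± 0.06 (SE), adjusted p = 0.0023). HOXC8, which sets the identity of brachial motor neurons, had 6021, 6761 and 7438 in siCtrl, 7923, 8106 and 7391 in siQKI and 5519.9, 5964 and 5969.6 in siRBFOX2 libraries. It was one of 2 rows called in opposite directions, up in siQKI (0.22 ± 0.07 (SE), adjusted p = 0.03) and down in siRBFOX2 (-0.21 ± 0.07 (SE), adjusted p = 0.044), and the siQKI and siCtrl libraries overlapped. HOXC9 passed in neither comparison (0.10 ± 0.05 (SE), adjusted p = 0.15 and 0.06 ± 0.05 (SE), adjusted p = 0.51).

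In HOXB, siQKI and siRBFOX2 parted. HOXB3 had 37898, 33092 and 32973 normalized counts in siCtrl, 50176, 48568 and 48893 in siQKI and 37585, 44202 and 37989 in siRBFOX2 libraries, and rose in siQKI (0.51 ± 0.06 (SE), adjusted p = 1.5e-05) more than in siRBFOX2 (0.20 ± 0.06 (SE), adjusted p = 0.025; difference 0.31 ± 0.06 (SE), adjusted p = 0.0023). HOXB4, inside the HOXB3 row, had 7666, 7779.7 and 7018 in siCtrl, 7881, 7019 and 6467 in siQKI and 5637, 5101 and 5689 in siRBFOX2 libraries. Only siRBFOX2 of the 2 knockdowns passed (-0.45 ± 0.07 (SE), adjusted p = 3.1e-04; -0.08 ± 0.07 (SE), adjusted p = 0.49 in siQKI), and the difference passed as well (0.38 ± 0.07 (SE), adjusted p = 0.0016). HOXB5 went the same way, with 22495, 22582 and 22034 in siCtrl, 24822, 22908 and 23785 in siQKI and 19089.7, 18828 and 18018 in siRBFOX2 libraries (siRBFOX2 -0.26 ± 0.04 (SE), adjusted p = 3.1e-04). HOXB6, the second row called in opposite directions, had 21083, 21430.1 and 20392 in siCtrl, then 23445, 23264 and 23528 in siQKI (0.16 ± 0.04 (SE), adjusted p = 0.0058) and 18349, 19148 and 18230.2 in siRBFOX2 (-0.17 ± 0.04 (SE), adjusted p = 0.0041). The siQKI libraries of HOXB6 lay above and the siRBFOX2 libraries below all siCtrl libraries.

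Further along, HOXB7 fell in both knockdowns, with 27554, 29165 and 29333 normalized counts in siCtrl, 25864, 25692 and 25509.7 in siQKI and 21793, 23287 and 25096 in siRBFOX2 libraries (-0.16 ± 0.05 (SE), adjusted p = 0.021 and -0.30 ± 0.05 (SE), adjusted p = 3.8e-04). HOXB7 and HOXC11 were the 2 rows that fell in both. HOXB8 had 7606, 8382 and 7729 in siCtrl, 9135, 9009 and 9227 in siQKI and 7523, 7481 and 7290.4 in siRBFOX2 libraries and rose in siQKI (0.21 ± 0.05 (SE), adjusted p = 0.005). HOXB9 had 25636, 25059 and 25612 in siCtrl, 31085, 30508 and 30637 in siQKI and 25544, 25900.4 and 26248 in siRBFOX2 libraries and rose in siQKI (0.27 ± 0.04 (SE), adjusted p = 3.0e-05). For both, siQKI also exceeded siRBFOX2 (0.30 ± 0.05 (SE), adjusted p = 5.7e-04 for HOXB8 and 0.25 ± 0.04 (SE), adjusted p = 1.4e-04 for HOXB9). HOXB13 passed in siRBFOX2 only narrowly (0.34 ± 0.12 (SE), adjusted p = 0.045), its libraries being 2759, 4033 and 3496 in siCtrl, 4358, 4009.9 and 3742 in siQKI and 3868, 4203 and 4805 in siRBFOX2, with overlap of all groups. HOXB2, the third-highest HOX row of PANC-1 per kilobase, did not pass in either knockdown (0.06 ± 0.05 (SE), adjusted p = 0.41 and -0.05 ± 0.05 (SE), adjusted p = 0.51).

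In HOXA, HOXA2 and HOXA3/HOXA5 rose in both knockdowns. HOXA2, which specifies the second pharyngeal arch, had 1184, 1065 and 1007 normalized counts in siCtrl, 1324, 1306 and 1463 in siQKI and 1623, 1299 and 1614 in siRBFOX2 libraries (0.33 ± 0.11 (SE), adjusted p = 0.035 and 0.47 ± 0.11 (SE), adjusted p = 0.0057). All libraries of each knockdown lay above the siCtrl libraries for HOXA2. HOXA3/HOXA5 had 2245, 2195 and 2144 in siCtrl, 3538, 3113 and 3176 in siQKI and 2490.2, 2551 and 2564 in siRBFOX2 libraries and rose more in siQKI (0.58 ± 0.07 (SE), adjusted p = 1.9e-05) than in siRBFOX2 (0.21 ± 0.07 (SE), adjusted p = 0.046; difference 0.37 ± 0.07 (SE), adjusted p = 0.0018). HOXA6 had 358, 395 and 439.7 in siCtrl, 698, 334 and 505 in siQKI and 779, 627 and 521 in siRBFOX2 libraries and passed in siRBFOX2 (0.68 ± 0.23 (SE), adjusted p = 0.045). HOXA11 had 212, 248 and 220.3 in siCtrl, 121, 167 and 161 in siQKI and 274, 476 and 225 in siRBFOX2 libraries, and passed only between the knockdowns, lower in siQKI (-1.05 ± 0.28 (SE), adjusted p = 0.015). HOXA4, HOXA7, HOXA9, HOXA10 and HOXA13 passed in none of the 3 comparisons, all with SE of 0.35 or more. HOXA10 reached at most 249.9 normalized counts in any PANC-1 library and HOXA9 at most 28.4.

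**Figure D3:**
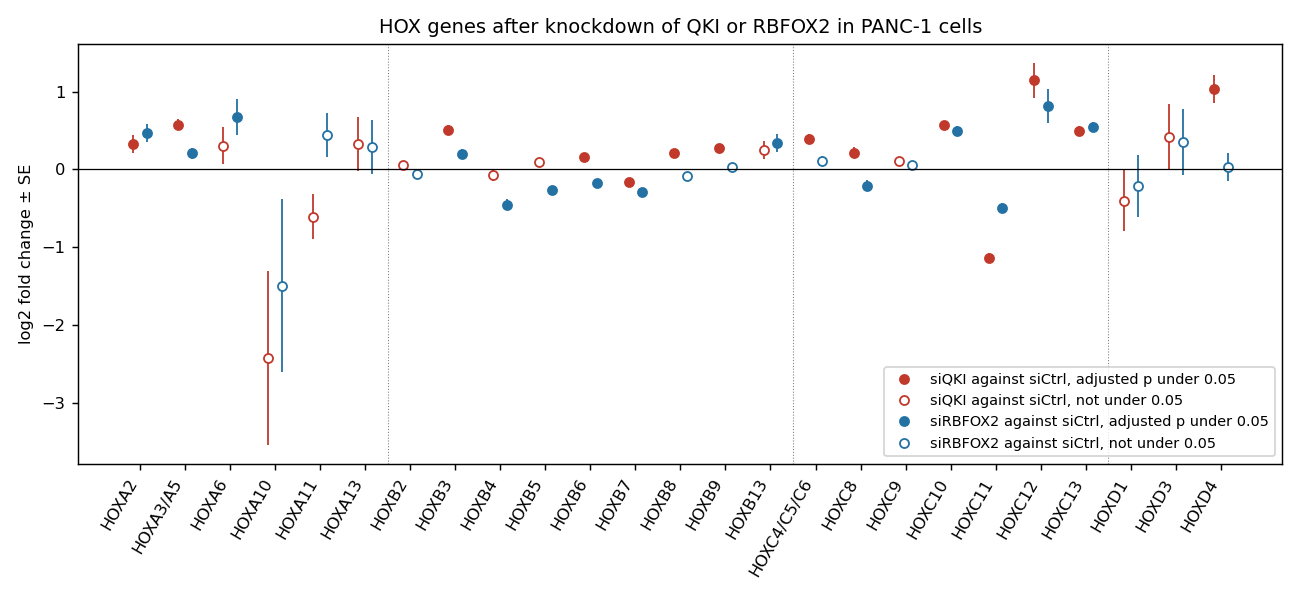
Log2 fold change ± SE (limma) of HOX rows whose mean reached 50 normalized counts over the PANC-1 libraries, in paralog order by cluster, for siQKI (red) and siRBFOX2 (blue) against the same siCtrl libraries. Filled points had an adjusted p under 0.05 and open points did not. HOXC11 lies at -1.14 and -0.49 and HOXC12 at 1.15 and 0.81.

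In HOXD, HOXD4 was the single row that passed, and it changed with QKI only. Its normalized counts were 317, 338 and 402 in siCtrl, 802, 741 and 625 in siQKI and 427, 322 and 338 in siRBFOX2 libraries. The siQKI libraries lay above all others, at 205% of siCtrl (1.03 ± 0.18 (SE), adjusted p = 3.5e-04), the siRBFOX2 and siCtrl libraries overlapped (0.04 ± 0.18 (SE), adjusted p = 0.91), and the difference between the knockdowns passed (0.998 ± 0.18 (SE), adjusted p = 8.2e-04). HOXD1 and HOXD3 did not pass. HOXD11 met the minimum only through 2 siQKI libraries at 68.0 and 29.4 and was listed at 0 in the other 10 libraries.
The HOXD4 promoter window is shown because it is the HOXD gene that moved (RefSeq, GRCh38.p14, plus strand, CG pairs in capitals).
HOXD4, chr2:176151300-176151599: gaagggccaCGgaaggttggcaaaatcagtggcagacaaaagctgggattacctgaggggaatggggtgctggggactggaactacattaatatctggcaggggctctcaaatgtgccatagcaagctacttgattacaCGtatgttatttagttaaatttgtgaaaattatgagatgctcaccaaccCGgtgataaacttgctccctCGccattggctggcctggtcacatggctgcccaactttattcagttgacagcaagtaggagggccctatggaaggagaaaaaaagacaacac
It held 4 CG pairs, and 75.4% of all windows held at least as many.

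After knockdown of RBFOX2, 15 of the 30 HOX rows changed as well, 9 rising and 6 falling. Over all genes 26.5% changed, 12.0% rising and 14.5% falling. The libraries did not overlap for 14 of the 30 rows, against 37.9% of all genes, and the median log2 fold change was 0.16 over the HOX rows and 0.01 over all genes. This HOX median was 0.08 over the 26 rows with a mean of at least 50 and also with a pseudocount of 0.1, and 0.06 without siCtrl library 2. The calls of HOXA3/HOXA5, HOXA6, HOXB3, HOXB13, HOXC8 and HOXC12 were each lost under at least 1 of the 17 settings, and the other 9 held. The 6 that fell were HOXB4, HOXB5, HOXB6, HOXB7, HOXC8 and HOXC11, so 5 of them were central genes (numbers 4 to 8). Of these 5, 4 lie side by side in HOXB, and the HOXC8 call held in only 6 of the 17 settings. Of 11 central rows tested, 1 rose and 5 fell in siRBFOX2, while 5 rose and 1 fell in siQKI. Of 7 anterior rows (numbers 1 to 3, with HOXA3/HOXA5), 4 rose and 0 fell in each knockdown.

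In all, 11 rows passed in both knockdowns, 7 rising in both, 2 falling in both and 2 in opposite directions, and 4 passed in each knockdown alone. The share of all genes passing in both was not computed, so these counts are not read as a trait of HOX genes. Both comparisons rest on the same siCtrl libraries, so a value that is off in those libraries moves both. Tested directly, siQKI and siRBFOX2 differed in 12 of the 30 rows, 10 higher and 2 lower in siQKI, against 21.5% of all genes (9.93% higher and 11.6% lower). The libraries did not overlap for 15 rows, against 35.2% of all genes. All 7 central rows that differed were higher in siQKI, among them HOXB4, HOXB5, HOXB6 and HOXB8, and the 2 that were lower were HOXC11 and HOXA11. The differences of HOXB3 and HOXA11 were lost under at least 1 setting, and the other 10 held.

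The letters that QKI and RBFOX proteins are known to recognise in RNA were looked for in the HOX transcripts. ACTAAC (QKI) and TGCATG (RBFOX) were searched on the transcript strand of the longest GENCODE transcript of each gene. Overlapping copies of the same motif were not counted separately. In the last 1000 bases, ACTAAC was found in 5 of 38 HOX genes (13.2%) and in 10.1% of 18008 genes, and TGCATG in 7 of 38 (18.4%) and in 25.0%. Sites anywhere in the transcripts of some of the genes described above are printed with the motif in capitals (GRCh38). Those of HOXC8 and the first of HOXC10 lie 1353 and 1529 bases from the transcript end, outside that window. Sites not printed include ACTAAC in HOXA3, HOXA11, HOXB13 and HOXC5, of which HOXA3 and HOXC5 belong to joined rows called in siQKI. They also include TGCATG in HOXA5, HOXB3, HOXB4 and HOXB13, whose rows were called in siRBFOX2. The ACTAAC sites of 3 genes called in siQKI come first.
HOXB7, chr17:48607422-48607447, minus strand: gtgggtctggACTAACcctgtggttg
HOXC8, chr12:54009632-54009657, plus strand: ctccgccaacACTAACagtagcgaag
HOXC12, chr12:53958615-53958640, plus strand: accactccagACTAACctgattccca
The TGCATG sites of HOXC10 and HOXC11, both called in siRBFOX2, follow on the plus strand.
HOXC10, chr12:53985583-53985608: gaatgtctgcTGCATGtacagcgcag
HOXC10, chr12:53990206-53990231: ttgtatctttTGCATGtagcttcctt
HOXC11, chr12:53977167-53977192: ctatatttgcTGCATGtttcttctgt
HOXC11, chr12:53977601-53977626: ttttgtctgtTGCATGgagtaaacct
Over the whole transcript HOXC11, which fell in both knockdowns, held 2 TGCATG and 0 ACTAAC, and HOXC10, which rose in both, also held 2 TGCATG, 1 of them in the last 1000 bases, and 0 ACTAAC. HOXB7 fell and HOXC8 and HOXC12 rose in siQKI, each with 1 ACTAAC in the transcript, which for HOXC8 lies outside the last 1000 bases. A match is a run of letters and no measure of binding, which these libraries did not record.

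Genes that act with or on HOX genes changed in part, and their counts stand beside 33.0% of all genes called in siQKI and 26.5% in siRBFOX2. Of 9 TALE cofactors tested, 4 rose and 1 fell in siQKI and 3 rose and 0 fell in siRBFOX2. PBX3, a DNA-binding partner of HOX proteins, fell in siQKI from a mean of 5467 to 2909 normalized counts (-0.91 ± 0.08 (SE), adjusted p = 3.6e-07), and in siRBFOX2 its mean was 5125. MEIS3 rose in both (0.50 ± 0.10 (SE), adjusted p = 0.0014 and 0.55 ± 0.10 (SE), adjusted p = 0.001). Of 11 Polycomb PRC2 genes, 0 rose and 4 fell in siQKI and 2 rose and 5 fell in siRBFOX2, with PHF19 (-0.59 ± 0.07 (SE), adjusted p = 2.1e-05 and -0.38 ± 0.07 (SE), adjusted p = 0.0013) and the core subunit SUZ12 (-0.34 ± 0.04 (SE), adjusted p = 2.0e-05 and -0.35 ± 0.04 (SE), adjusted p = 2.7e-05) falling in both. With upper-quartile scaling the siQKI count for PRC2 was 2 rising and 4 falling. Of 16 PRC1 genes, 3 rose and 5 fell in siQKI (5 and 4 with upper-quartile scaling) and 3 rose and 7 fell in siRBFOX2 (3 and 5). Of 15 MLL and trithorax genes, 1 rose and 3 fell in siQKI (3 and 2) and 1 rose and 5 fell in siRBFOX2 (1 and 3). The lists are short, so none of these shares is read against that of all genes.

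Among 13 tested genes of the retinoic acid pathway, which switches anterior HOX genes on in embryos, 4 rose and 1 fell in siQKI and 4 rose and 2 fell in siRBFOX2. CYP26A1, which degrades retinoic acid, rose in both (0.92 ± 0.31 (SE), adjusted p = 0.035 and 0.89 ± 0.31 (SE), adjusted p = 0.047). Of 3 ParaHox and CDX genes tested, 1 rose in siQKI (CDX2, 0.38 ± 0.13 (SE), adjusted p = 0.034) and 0 changed in siRBFOX2. Of 13 tested noncoding RNAs of the clusters, 6 rose and 1 fell in siQKI and 4 rose and 0 fell in siRBFOX2. Beside HOTAIR, HOXB-AS3 rose in both (0.98 ± 0.15 (SE), adjusted p = 1.0e-04 and 0.61 ± 0.15 (SE), adjusted p = 0.0062), which overlaps HOXB5 and HOXB6 on the other strand. The median log2 fold change of these 13 RNAs was 0.22 and 0.25. Of 12 tested genes that flank the clusters, 1 rose and 4 fell in siQKI (3 and 2 with upper-quartile scaling) and 2 rose and 0 fell in siRBFOX2, the latter below the share of all genes. Their median log2 fold changes were -0.09 and -0.01.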

How the data were processed

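PolyA RNA of 12 libraries was sequenced. The deposited files hold signal, that is gene counts scaled by the authors with DESeq2 size factors, in 1 table for the 9 PANC-1 libraries and another for the 3 HPAF-II libraries. The submitters' processing notes name STAR 2.7.5a and hg38, and strand is not given in the sources used here. Within 0.01 of a whole number, every value was a multiple of 1 step per library. A share of 82.1% to 84.8% of the low values came in multiples of 3 steps, and a step is therefore not shown to be 1 fragment. The depth in fragments is unknown, and precision was taken from replicates. The PANC-1 libraries summed to 292248837 to 376192091 steps and the HPAF-II libraries to 226697015 to 309720537. No column was without a sample.

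For the PANC-1 comparisons, log2(normalized count + 1) was fitted in limma 3.58.1 (R 4.3.3) with a mean-variance trend, on 22544 genes with a mean of at least 10, the 9 libraries in 1 fit. The pseudocount lowers the fold change of low genes. Tests were two-sided, and p-values were adjusted over all genes by Benjamini-Hochberg. The fit was tested on simulated data. For the lines, libraries were scaled to a common sum of 1000000, and log2 ratios of group means used a pseudocount of 0.01. Levels per kilobase used GENCODE exon lengths of the named genes, which can differ from the rows' own span. Of the 36 HOX rows, 21 overlap another row and 14 of these an antisense gene.

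Values in every library were given for rows passing in any PANC-1 comparison with a mean of at least 50, and for rows with a mean of at least 50 in either line that were at least 4-fold apart without overlap. From the other lists, at most 2 changed genes per comparison were named. Values of a few genes under these rules are not reported here, while counts over lists include them. The members and lists were chosen with earlier results of these data known. Replicate numbers did not pair samples (correlation of same-numbered deviations -0.03 to 0.02).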

Additional observations from a re-analysis of the deposited data

How the results depend on the processing

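The number of HOX rows called ranged over the alternatives from 11 to 16 in siQKI against siCtrl, from 10 to 15 in siRBFOX2 against siCtrl and from 11 to 13 between the knockdowns. Leaving out 1 library in turn gave 12 to 15, 10 to 14 and 11 to 13. The siRBFOX2 count was 10 without siCtrl library 2, siCtrl library 3 or siRBFOX2 library 2, and 11 without the mean-variance trend, without a minimum or with only the compared groups in the fit. With the replicate number as a block the counts were 15, 14 and 12, and over all genes 7336, 5891 and 4758. Upper-quartile scaling gave 15 HOX rows rising and 1 falling in siQKI, and over all genes moved the siQKI split from 3362 rising and 4070 falling to 4225 and 3057, with the median of all genes at 0.09 in place of 0.03. Over the alternatives, the share of all genes called ranged from 22.4% to 42.5% in siQKI and from 17.8% to 34.6% in siRBFOX2. Between the knockdowns it ranged from 14.4% to 28.4%. The highest shares came with a mean of at least 50, where 15, 15 and 13 of 26 HOX rows were called.

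No HOX call changed sign. Of the 42 calls over the 3 comparisons, 30 held under all 17 alternatives. Among the others, leaving out 1 library of a compared group ended the siQKI calls of HOXA2 (siCtrl 2 or 3, or any siQKI), HOXB7 (siCtrl 2 or 3, siQKI 2 or 3) and HOXC8 (siCtrl 1 or 2, siQKI 1 or 2). In siRBFOX2 it ended those of HOXA3/HOXA5 (any siCtrl or siRBFOX2), HOXA6 (any siCtrl, siRBFOX2 1 or 2), HOXB13 (siCtrl 1 or 3, siRBFOX2 2 or 3), HOXB3 (siCtrl 2 or 3, siRBFOX2 2), HOXC8 (siCtrl 2 or 3, any siRBFOX2) and HOXC12 (siCtrl 2), and between the knockdowns that of HOXA11 (siQKI 1 or siRBFOX2 2). Upper-quartile scaling ended the calls of HOXB7 in siQKI and HOXC8 in siRBFOX2. The cause was not tested.

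The count of HOX rows at least 2-fold apart between the lines was 29 in the alternatives of scaling, pseudocount and minimum, and 29 to 30 with 1 library left out. With a pseudocount of 0.1 the log2 ratios of HOXA9 and HOXB2 were 5.11 and -9.38, since low values are pulled together. A count test on whole reads was planned and not run, because a step could not be shown to be 1 fragment. The depth in fragments is unknown, so its part in the spread of the low rows was not tested.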

Other observations

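Genes that act on HOX clusters are described here in the control cells of the lines by rescaled counts without a test, beside the 52.4% of all genes at least 2-fold apart (27.2% higher and 25.2% lower in HPAF-II). Of 8 TALE cofactors with enough counts, 3 were at least 2-fold higher and 1 lower in HPAF-II, with MEIS3 at means of 952 normalized counts in PANC-1 siCtrl and 15.0 in HPAF-II libraries. Of 11 PRC2, 16 PRC1 and 15 MLL and trithorax genes, 2, 2 and 2 were higher and 1, 2 and 0 lower, all below the share of all genes. Of 15 retinoic acid pathway genes, 7 were higher and 4 lower. ALDH1A1, an enzyme that makes retinoic acid, had means of 0 and 18872 normalized counts. ALDH1A3, on the same list, had means of 26819 in PANC-1 siCtrl and 116716 in HPAF-II libraries. CDX2, a homeodomain regulator of intestinal cells, had 786 and 3926.

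Noncoding RNAs of the clusters followed the side of their own cluster in most cases. Of 14 considered, 3 were at least 2-fold higher in HPAF-II (HOXA-AS2, HOXA-AS3 and HOXA10-AS) and 10 lower. HOTAIRM1, of the HOXA cluster, had 3658, 4114 and 3738 normalized counts in PANC-1 siCtrl libraries and 18.5, 87.1 and 11.0 in HPAF-II libraries. HAGLR lies on the other strand and shares 380 bp with the HOXD1 row. It had 1328, 1220 and 1283 normalized counts in PANC-1 siCtrl libraries, and HOXD1 had 96.7, 172 and 117. Fragments from the shared 380 bp cannot be assigned to either gene without strand. Of the 13 considered genes that flank the clusters, 5 were higher and 0 lower in HPAF-II.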
